A study of Mus musculus with 28 samples.

Results

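Within regulatory T (Treg) cells, 7 genes that direct or mark helper T cell lineages were followed: the transcription factor genes Tbx21, Gata3, Rora and Bcl6, the inhibitor gene Id2, the receptor gene Il1rl1 and the cytokine gene Ifng. They were chosen by name, with earlier results of these data known, so the counts of them called are a description. They are 7 of the 43430 gene IDs in the count tables, and all of them were matched by Ensembl ID. RNA was sequenced in 28 libraries of sorted CD4+ YFP-Foxp3+ CD25+ cells of C57BL/6NJ mice. The genotype contrast was RISP KO against RISP WT, where RISP is the iron-sulfur protein of complex III of the respiratory chain and the product of Uqcrfs1. It was made in 3-week-old mice (RISP_KO and RISP_WT, 4 libraries each) and in chimeras aged 8 to 12 weeks (RISP_Chimera_KO and RISP_Chimera_WT, 4 libraries each). RISP WT Treg cells of 3-week-old mice were kept in vitro with piericidin (1 µM), which blocks complex I, with 3-NPA (500 µM), which blocks complex II, with antimycin A (1 µM), which blocks complex III, or untreated (3 libraries each). The labels do not say which Cre line deleted RISP, how the chimeras were made, how long the cultures lasted or whether the replicates were separate mice, so a p-value measures only the spread between these libraries.

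Helper T cells take different fates under master regulators: T-bet, encoded by Tbx21, drives the Th1 programme and its cytokine interferon-gamma, encoded by Ifng, GATA3 drives the Th2 programme, and BCL6 drives the follicular helper programme. RORα, encoded by Rora, acts in Th17 cells and is needed for group 2 innate lymphoid cells. ID2 holds E proteins, a class of DNA-binding factors, in inactive pairs, and Il1rl1 encodes ST2, the receptor for the alarmin IL-33, which GATA3 induces in Th2 cells. Treg cells use several of these factors themselves: subsets that express T-bet, GATA3 or BCL6 restrain the matching type of helper response, and ST2+ GATA3+ Treg cells are abundant in tissues.

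Depth was 28.4 to 50.8 M counts per library for the 3-week-old groups, 20.4 to 31.0 M for the chimera groups and only 2.71 to 3.45 M for the in vitro groups, and all 7 genes passed the filter on low counts in every fit. Uqcrfs1, the targeted gene, read 5.14 to 7.45 CPM (counts per M counts of the library) in RISP_KO against 154 to 189 CPM in RISP_WT. In chimeras it read between 4.83 and 11.3 CPM in the knockout libraries and between 73.5 and 85.9 CPM in the wild-type libraries. Foxp3, which encodes the factor that defines Treg cells, was detected in every library, at 24.4 to 38.1 CPM in 3-week-old mice and 386 to 508 CPM in chimeras. The libraries of 3-week-old mice were made with another kit than all others, so levels were compared only within a table. Gata3, Rora, Bcl6 and Ifng overlap other annotated genes, most of them predicted or non-coding (Gm13256, Gm15511, Gm37419 and Gm49751 among them), and without a stated strand setting the reads of such partners cannot be told apart. Summed markers of macrophages and dendritic cells (12 genes) read 9.25 to 14.5 CPM in RISP_KO against 17.9 to 46.6 CPM in RISP_WT, and in RISP_Chimera_KO they were highest in replicates 2 and 4 (73.0 and 84.9 CPM, against 30.0 and 29.9 CPM in replicates 1 and 3 of that group and 24.7 to 54.1 CPM in RISP_Chimera_WT).

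Compared per kilobase of gene length, Id2 and Gata3 stood far above the other members in the controls. Their levels were 56.5 ± 8.89 and 48.8 ± 3.29 RPKM (CPM divided by the gene's length in kilobases, SD, n = 4) in RISP_WT, where the 2 ranges overlapped, and no other member averaged above 5.51 RPKM (Tbx21). In RISP_Chimera_WT the order was Gata3 (26.3 ± 2.78), Id2 (23.5 ± 6.48), Ifng (4.43 ± 1.36), Bcl6 (4.00 ± 0.658), Rora (2.45 ± 0.369), Tbx21 (1.24 ± 0.602) and Il1rl1 (0.927 ± 0.133 RPKM, SD, n = 4). Neighbours in that order overlapped in range except Id2 with Ifng and Bcl6 with Rora. In In_vitro_Untreated, Gata3 (36.0 ± 4.14 RPKM, n = 3) stood clear of Id2 (22.9 ± 2.75 RPKM). Bcl6 was the lowest there at 0.840 ± 0.395 RPKM, below every library of its neighbour Ifng (3.72 ± 2.07 RPKM, from 6 to 24 counts). These orders depend on the gene lengths used, which run from 1207 bases (Ifng) to 16711 bases (Rora). In CPM, Rora (81.2 ± 17.8) averaged above Id2 (71.6 ± 11.9) in RISP_WT, with overlapping ranges. In In_vitro_Untreated, Rora (83.2 ± 4.61 CPM) and Il1rl1 (55.9 ± 8.52 CPM) lay above Id2 (29.6 ± 3.72 CPM).

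**Figure D1:**
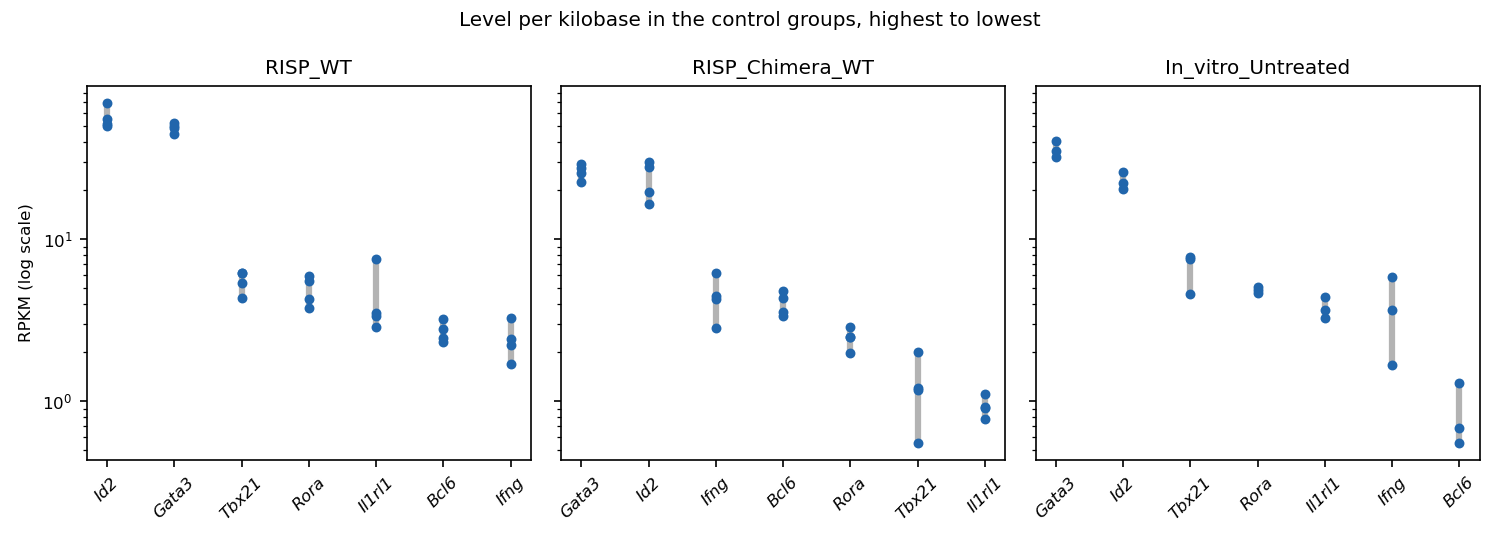
Level per kilobase of the 7 genes (RPKM, log axis) in each library of the control groups RISP_WT, RISP_Chimera_WT and In_vitro_Untreated, ordered by group mean; grey bars span the lowest to the highest library. Id2 and Gata3 lie between 16.6 and 69.4 RPKM in the 3 control groups, and the other 5 genes lie at or below 7.75 RPKM.

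The windows before the start sites of Il1rl1 and Bcl6 are shown because both genes have 2 annotated promoters, because the gene counts cannot tell which one was used, and because matches to motifs of GATA3 and BCL6 were found in them. Each window is the 250 bases upstream of a start site in RefSeq (GRCm38.p6), 5′ to 3′ on the gene's strand. Capitals mark matches, on either strand, to GATAA, a core bound by GATA factors, in Il1rl1 and to TTCNNNGAA, a form bound by BCL6 and by STAT factors, in Bcl6.
Il1rl1, first start site, chr1:40429320-40429569, plus strand: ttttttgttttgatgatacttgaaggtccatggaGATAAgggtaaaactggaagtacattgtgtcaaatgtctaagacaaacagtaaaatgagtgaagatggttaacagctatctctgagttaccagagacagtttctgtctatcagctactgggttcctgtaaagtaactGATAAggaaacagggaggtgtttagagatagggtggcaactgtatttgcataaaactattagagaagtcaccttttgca
Il1rl1, second start site, chr1:40439379-40439628, plus strand: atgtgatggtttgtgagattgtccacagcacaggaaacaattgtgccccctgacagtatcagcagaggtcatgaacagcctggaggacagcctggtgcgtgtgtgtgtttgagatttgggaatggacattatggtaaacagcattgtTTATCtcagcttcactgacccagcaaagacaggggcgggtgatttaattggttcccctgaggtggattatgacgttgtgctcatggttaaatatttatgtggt
Bcl6, first start site, chr16:23988853-23989102, minus strand: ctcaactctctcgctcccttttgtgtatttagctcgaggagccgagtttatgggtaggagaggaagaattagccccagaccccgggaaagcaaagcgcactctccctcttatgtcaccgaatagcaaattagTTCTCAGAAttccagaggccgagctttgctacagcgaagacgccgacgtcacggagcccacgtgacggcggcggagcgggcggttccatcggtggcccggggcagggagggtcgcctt
Bcl6, second start site, chr16:23981284-23981533, minus strand: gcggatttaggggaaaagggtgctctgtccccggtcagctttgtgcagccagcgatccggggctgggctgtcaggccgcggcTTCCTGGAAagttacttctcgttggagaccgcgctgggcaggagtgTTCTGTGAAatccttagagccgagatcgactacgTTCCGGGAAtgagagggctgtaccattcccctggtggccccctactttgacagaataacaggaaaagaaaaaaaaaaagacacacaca
GATAA occurred 2 times in the first Il1rl1 window, from -216 and from -79 relative to the start site, and 1 time in the second, as its reverse complement from -103. It was present in 22.6% of the 32851 windows of this length in the table, and in the window of no member other than Il1rl1. TTCNNNGAA occurred 1 time in the first Bcl6 window and 3 times in the second, against 7.02% of all windows with at least 1 match, and it was also found 1 time in the Ifng window. No window of Rora, Gata3 or Tbx21 held either motif, and neither did that of Id2. AGGTCA, a form bound by RORα, occurred 1 time in the second Il1rl1 window, from -185, and in no other of the 9 windows of the members, against 14% of all windows. TCACAC, a form bound by T-bet, occurred in none of the 9, against 12.3% of all windows. CANNTG, the core bound by the E proteins that ID2 holds, was in the windows of Tbx21, Id2 and Ifng, in the first of Bcl6 and in both of Il1rl1, against 66.2% of all windows. A match says only that the letters are there.

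At 3 weeks of age, 3 of the 7 genes were lower and 0 were higher in RISP_KO than in RISP_WT Treg cells, in a comparison in which 9.86% of the 13832 genes tested were called (5.08% lower, 4.78% higher) at a Benjamini-Hochberg adjusted p under 0.05 in edgeR's quasi-likelihood test. Rora, the regulator shared by Th17 cells and group 2 innate lymphoid cells, fell. It read 29.7, 28.6, 26.1 and 35.0 CPM in the RISP_KO libraries, against 98.6, 71.6, 92.3 and 62.8 CPM in the RISP_WT libraries (chromosome 9, 68653786 to 69388246, mm10). Every RISP_KO library lay below every RISP_WT library, and Rora differed by -1.44 ± 0.16 on the log2 scale (SE of the log2 fold change; adjusted p = 0.000457), with group means of 30.0 ± 4.16 and 81.2 ± 17.8 CPM (SD, n = 4 each). The adjusted p of Rora stayed between 0.000592 and 0.00254 when any 1 library was left out. In bulk libraries, fewer cells of a kind and less RNA per cell cannot be told apart.

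Bcl6, the follicular regulator, was lower by less. It read 11.6, 11.7, 16.1 and 13.2 CPM in RISP_KO, against 20.7, 17.2, 18.2 and 23.9 CPM in RISP_WT (chromosome 16, 23965052 to 23988852). The groups did not overlap, although the highest RISP_KO library came near the lowest RISP_WT library, and 9.49% of all genes tested had every RISP_KO library below every RISP_WT library. The log2 fold change was -0.59 ± 0.16 (13.2 ± 2.22 against 19.9 ± 2.92 CPM, adjusted p = 0.0427). That call was lost when replicate 1, 2 or 4 of RISP_KO or replicate 1, 3 or 4 of RISP_WT was left out, with adjusted p of up to 0.119, and with no filter on low counts (adjusted p = 0.0504).

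Ifng, the Th1 cytokine, was lower at a low level. Its counts were 9, 36, 48 and 15 in RISP_KO (0.258, 1.27, 1.33 and 0.422 CPM), against 145, 102, 75 and 148 in RISP_WT (3.91, 2.69, 2.04 and 2.92 CPM; chromosome 10, 118441047 to 118445892). All RISP_KO libraries lay below all RISP_WT libraries, with a spread of several-fold within RISP_KO. The log2 fold change was -1.81 ± 0.47 (0.825 ± 0.563 against 2.88 ± 0.776 CPM, adjusted p = 0.036), and the call was lost without replicate 4 of RISP_KO or without any 1 of the RISP_WT libraries (adjusted p of up to 0.108). Tbx21, the Th1 regulator, was not called. It read 10.1, 16.9, 19.7 and 23.3 CPM in RISP_KO against 15.3, 13.3, 10.8 and 15.4 CPM in RISP_WT (0.37 ± 0.24, adjusted p = 0.376; chromosome 11, 97098071 to 97115331), so the lowest library of the 8 and the 3 highest were all RISP_KO.

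Il1rl1, the IL-33 receptor gene, read 9.45, 41, 33.7 and 19.6 CPM in RISP_KO, against 110, 41.7, 51.5 and 48.8 CPM in RISP_WT (chromosome 1, 40429570 to 40465415). Replicate 1 of RISP_WT stood above its group, the other 3 RISP_WT libraries lay between 41.7 and 51.5 CPM, and the highest RISP_KO library came within 1 CPM of them. The log2 fold change of -1.27 ± 0.43 did not pass the threshold (26.1 ± 14.2 against 63.0 ± 32.1 CPM, adjusted p = 0.0902, 95% interval -2.22 to -0.32), and without replicate 1 of RISP_WT it was -0.85 (adjusted p = 0.256). With no filter on low counts the gene was called (adjusted p = 0.0495). Gata3, the Th2 regulator, differed little, at 246, 221, 289 and 231 CPM in RISP_KO against 286, 244, 275 and 265 CPM in RISP_WT (-0.11 ± 0.10, adjusted p = 0.556, 95% interval -0.33 to 0.11; chromosome 2, 9857078 to 9890034). Id2 varied within RISP_KO more than between the groups: it read 48.5, 46.0, 113 and 76.0 CPM in RISP_KO against 88.2, 63.5, 70.2 and 65.1 CPM in RISP_WT (0.00 ± 0.26, adjusted p = 0.999, 95% interval -0.58 to 0.58; chromosome 12, 25093801 to 25096092).

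The markers of T cells and of other cell types also differed in 3-week-old mice. The 8 T cell markers summed to 5290 to 6040 CPM in RISP_KO against 6780 to 6990 CPM in RISP_WT, with 2 of 8 lower. The 7 Treg markers summed to 2350 to 2800 CPM in RISP_KO and 2290 to 2710 CPM in RISP_WT, with 1 of 7 higher and 1 lower. Of the 12 macrophage and dendritic cell markers 9 were tested and 4 were lower in RISP_KO, where Adgre1 reached 0 in at least 1 library and Csf1r read 0.141 to 1.19 CPM against 1.32 to 10.9 CPM in RISP_WT. The 9 B and plasma cell markers summed to 568 to 793 CPM against 781 to 983 CPM, most of it Ighm, and 2 of 7 tested were lower. The 9 CD8 and NK cell markers summed to 176 to 228 CPM in RISP_KO against 128 to 150 CPM in RISP_WT, with 2 of 7 tested higher (Gzma and Eomes). Most of that sum was Nkg7, at 92.4 to 156 CPM in RISP_KO and 104 to 120 CPM in RISP_WT. Gzma read 21.9 to 49.9 CPM in RISP_KO and 0.527 to 2.07 CPM in RISP_WT, and Eomes 8.05 to 19.2 and 0.809 to 2.97 CPM. Cd8b1 read 19.6 to 26.2 CPM in RISP_KO and 17.3 to 22 CPM in RISP_WT, and Cd8a was at 1.75 CPM or less in RISP_KO and 1.78 CPM or less in RISP_WT. The 7 markers of mast cells and basophils, cells that can carry ST2, summed to 2.23 to 7 CPM in RISP_KO against 4.62 to 7.39 CPM in RISP_WT. Most of that sum was Kit, at 1.46 to 5.62 CPM in RISP_KO and 4.08 to 6.89 CPM in RISP_WT. None of the 7 is particular to innate lymphoid cells, whose amount was not measured. Mcpt8 had 2 to 30 counts in RISP_KO and 0 to 2 in RISP_WT, Tpsb2 was at 0 in all 8 libraries, and Fcer1a, Ms4a2 and Cma1 had at most 2 counts in a library. The part of these other cell types, or of the lower T cell sum, in the values of Rora, Bcl6, Ifng and Il1rl1 was not tested.

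**Figure D2:**
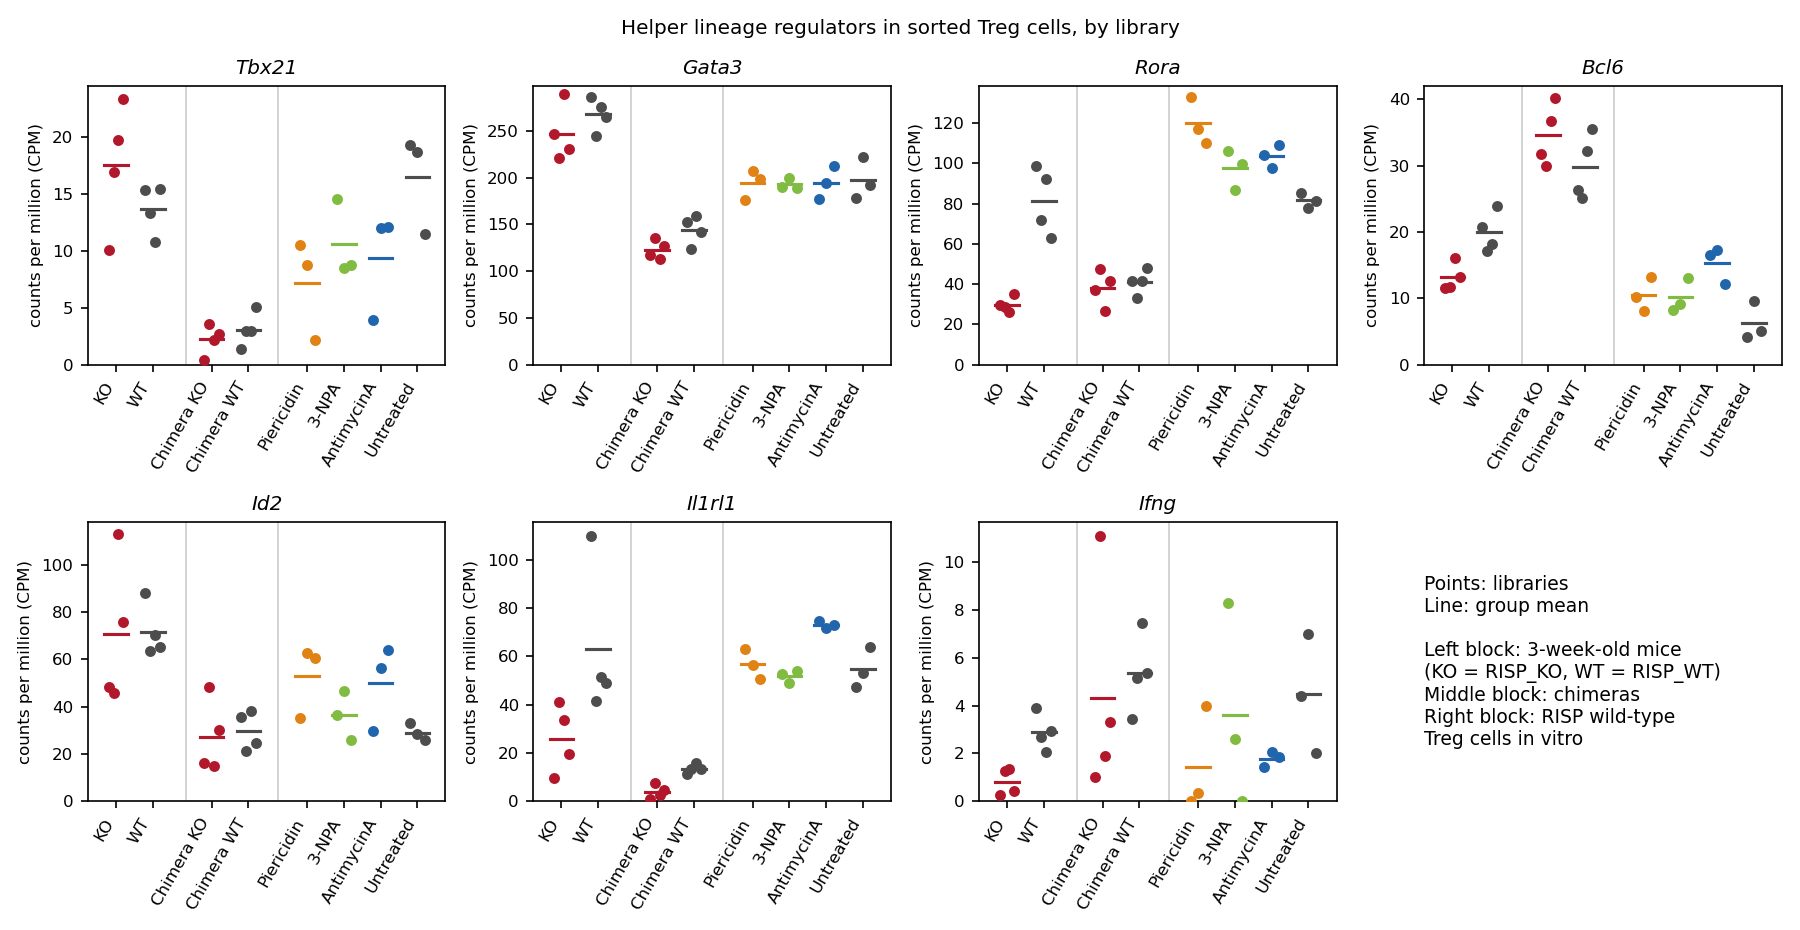
Level in CPM of each gene (vertical axis, from 0) in each of the 28 libraries, with the group mean as a line; the left block is RISP_KO and RISP_WT, the middle block RISP_Chimera_KO and RISP_Chimera_WT, and the right block piericidin, 3-NPA, antimycin A and untreated cells in vitro. Rora lies at 26.1 to 35.0 CPM in RISP_KO and 62.8 to 98.6 CPM in RISP_WT, and the 2 chimera groups overlap.

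In chimeras, 0 of the 7 genes were called by edgeR, where 0.708% of the 14399 genes tested were called. At an unadjusted p under 0.05 there were 2 (Il1rl1 and Gata3), and DESeq2 called 1 (Il1rl1). Il1rl1 read 1.09, 7.54, 2.68 and 4.66 CPM in RISP_Chimera_KO, against 11.4, 13.4, 16 and 13.3 CPM in RISP_Chimera_WT. Every RISP_Chimera_KO library lay below every RISP_Chimera_WT library, an arrangement found in 4.10% of all genes tested. The log2 fold change was -1.79 ± 0.40 (3.96 ± 2.76 against 13.6 ± 2.08 CPM, adjusted p = 0.0679, n = 4 per group, 95% interval -2.67 to -0.92). With 1 library left out it ran from -2.30, without replicate 2 of RISP_Chimera_KO, to -1.48, without replicate 1 of that group, with adjusted p from 0.00727 to 0.202. Replicate 2 was the highest library of that group, so leaving it out had to make the fold change more negative. The gene was called by DESeq2 (adjusted p = 0.0399) and by edgeR with no filter on low counts (adjusted p = 0.00454). It stayed uncalled in 9 of the 14 alternatives run.

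Rora did not separate the chimeras. It read 37.1, 47.3, 26.5 and 41.8 CPM in RISP_Chimera_KO, against 41.5, 32.9, 41.5 and 47.9 CPM in RISP_Chimera_WT (-0.12 ± 0.16, adjusted p = 0.8, 95% interval -0.46 to 0.22). Bcl6 read 31.8, 30.0, 36.7 and 40.2 CPM against 26.3, 25.2, 32.2 and 35.6 CPM in RISP_Chimera_WT (0.20 ± 0.13, adjusted p = 0.559), with overlapping groups. Gata3 read 117, 135, 113 and 127 CPM against 152, 124, 159 and 142 CPM in RISP_Chimera_WT (-0.25 ± 0.09, adjusted p = 0.254), where replicate 2 of RISP_Chimera_WT was the only one of its group to lie within the RISP_Chimera_KO range.

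The other members varied widely among the RISP_Chimera_KO libraries. Id2 read 16.1, 48.2, 14.9 and 30.3 CPM against 35.6, 21.1, 38.1 and 24.8 CPM in RISP_Chimera_WT (-0.15 ± 0.32, adjusted p = 0.89). Ifng read 1.02, 11.1, 1.88 and 3.30 CPM against 3.43, 5.14, 7.45 and 5.38 CPM in RISP_Chimera_WT (-0.34 ± 0.56, adjusted p = 0.85). Tbx21 was low, at 13, 95, 62 and 82 counts (0.428, 3.58, 2.15 and 2.73 CPM) against 28, 84, 93 and 145 counts (1.37, 2.92, 3.00 and 5.04 CPM) in RISP_Chimera_WT (-0.50 ± 0.52, adjusted p = 0.737). Replicates 2 and 4 of RISP_Chimera_KO were the 2 highest of that group for Id2, Ifng, Tbx21, Il1rl1, Rora and Gata3, but not for Bcl6. The same 2 libraries had the highest macrophage and dendritic cell marker sums. They also had the highest Uqcrfs1 of that group, at 11.3 and 6.19 CPM against 4.84 and 4.83 CPM in replicates 1 and 3. The part of either in these values was not tested. Without both, in an analysis chosen after seeing the data, the log2 fold changes were -2.86 for Il1rl1 (adjusted p = 0.00101) and -1.90 for Ifng (adjusted p = 0.0331). The 2 libraries left out were the highest of their group for both genes, so leaving them out had to lower both values, and these calls support nothing. The markers of mast cells and basophils summed to between 4.74 and 9.13 CPM in RISP_Chimera_KO and between 3.30 and 3.62 CPM in RISP_Chimera_WT. Most of that sum was Kit, at 4.34 to 8.39 CPM in RISP_Chimera_KO and 2.8 to 3.28 CPM in RISP_Chimera_WT, while Fcer1a, Mcpt8 and Tpsb2 were at 0 in all 8 libraries. The part of such cells in the level of Il1rl1 was not tested.

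The effect of the knockout was compared directly between chimeras and 3-week-old mice. The difference was called for 1 of the 7 genes, against 3.27% of the 15580 genes tested. For Rora the log2 fold change in chimeras minus that in 3-week-old mice was 1.30 ± 0.24 (adjusted p = 0.00474, 4 groups of 4), with a 95% interval of 0.79 to 1.80. For Bcl6 it was 0.77 ± 0.21 (adjusted p = 0.0506), just outside the threshold, and DESeq2 called it (adjusted p = 0.0111). For Il1rl1 it was -0.55 ± 0.64 (adjusted p = 0.726, 95% interval -1.89 to 0.79) and for Ifng 1.44 ± 0.82 (adjusted p = 0.394), so no difference between the settings was shown for these. The macrophage and dendritic cell markers moved with this contrast, with 5 of 11 tested called higher and 0 lower (median 2.28), and their part in the difference for Rora was not tested. The loss of Uqcrfs1 itself was also smaller in chimeras (-3.60 ± 0.23) than in 3-week-old mice (-4.83 ± 0.14). That difference was called too (1.20 ± 0.27, adjusted p = 0.0191), and its part in the difference for Rora was not tested. Age, kit and setting differ together between the 2 pairs of groups and cannot be told apart.

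**Figure D3:**
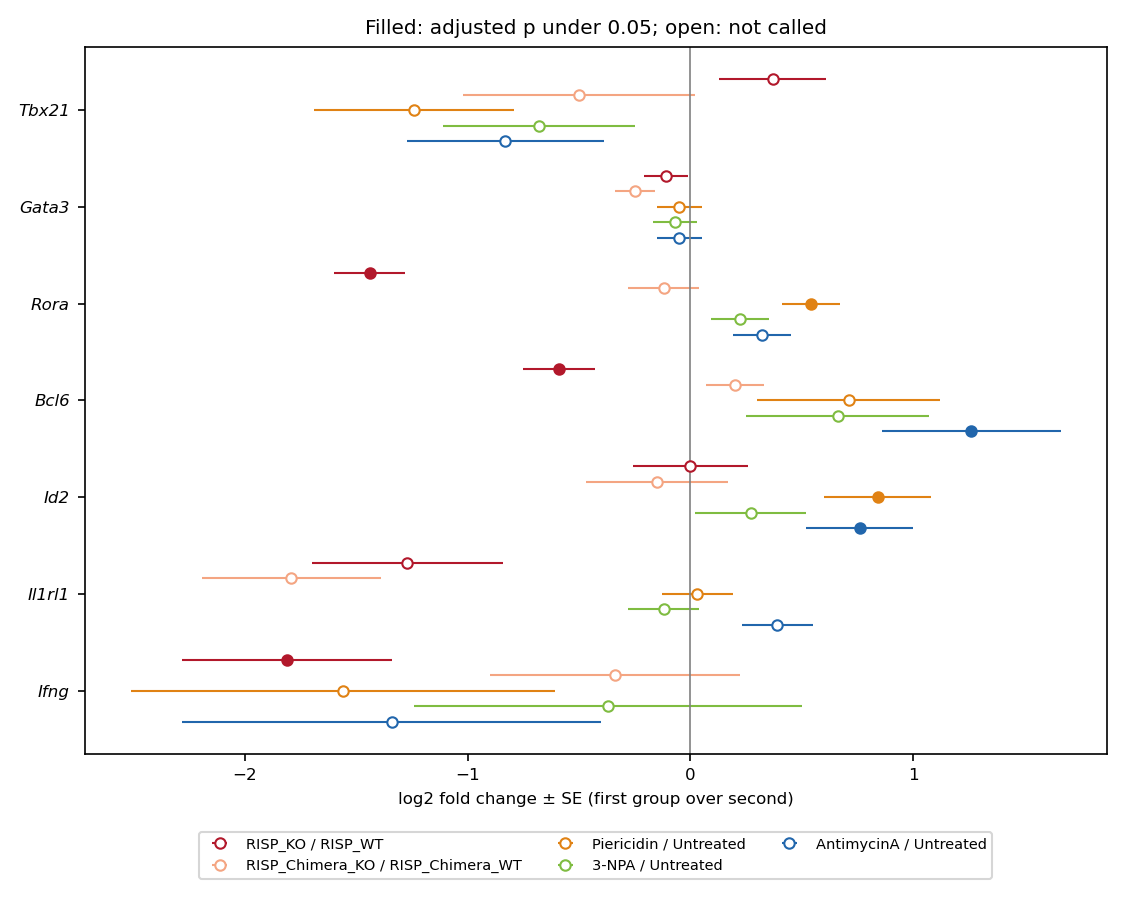
Log2 fold change ± SE (horizontal axis, first group over second) of the 7 genes in RISP_KO, RISP_Chimera_KO, piericidin, 3-NPA and antimycin A, each against its own control; filled points have an adjusted p under 0.05. Rora lies at -1.44 in RISP_KO and at 0.54 with piericidin, and Gata3 lies between -0.25 and -0.05 in all 5 comparisons.

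In vitro, Rora and Id2 rose with piericidin and Bcl6 and Id2 rose with antimycin A, and no member passed the test with 3-NPA. The 3 treatments share their untreated libraries, so the comparisons are not independent of each other. With piericidin, 2 of 7 genes were higher and 0 lower, against 13.6% of the 11689 genes tested (5.62% higher). Rora read 133, 117 and 110 CPM with piericidin, against 85.3, 78.0 and 81.3 CPM in untreated cells. All treated libraries lay above all untreated ones. The share of all genes with that arrangement is not given here, but 15.2% had every piericidin library below every untreated one. The log2 fold change of Rora was 0.54 ± 0.13 (121 ± 13.3 against 83.2 ± 4.61 CPM, adjusted p = 0.00363, n = 3 per group). It stayed at an adjusted p of 0.0357 or less when any 1 library was left out.

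Id2 read 35.2, 62.8 and 60.5 CPM with piericidin, against 32.9, 28.3 and 26 CPM in untreated cells. The groups did not overlap, but replicate 1 with piericidin was close to the untreated libraries. The log2 fold change was 0.84 ± 0.24 (52.9 ± 14.8 against 29.6 ± 3.72 CPM, adjusted p = 0.0147), and the call was lost without replicate 2 or 3 with piericidin or without untreated replicate 3 (adjusted p of up to 0.0979). Tbx21 read 10.5, 8.76 and 2.15 CPM (29, 24 and 7 counts) with piericidin, against 19.3, 18.7 and 11.5 CPM (61, 64 and 34 counts) in untreated cells. All treated libraries were lower, as for 15.2% of all genes tested, and the log2 fold change of -1.24 ± 0.45 missed the threshold (adjusted p = 0.0581). DESeq2 called it (adjusted p = 0.0421), and with 1 library left out its adjusted p ran from 0.026 (without piericidin replicate 1) to 0.317 (without piericidin replicate 3, where the log2 fold change was -0.79).

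With antimycin A, 2 of 7 genes were higher and 0 lower, against 15.0% of genes tested (6.50% higher). Bcl6 read 16.6, 17.3 and 12.1 CPM (46, 59 and 33 counts) with antimycin A, against 4.11, 9.64 and 5.06 CPM (13, 33 and 15 counts) in untreated cells. All treated libraries lay above all untreated ones, and the log2 fold change was 1.26 ± 0.40 (15.4 ± 2.67 against 6.37 ± 2.93 CPM, adjusted p = 0.0261, n = 3 per group). The call was lost without replicate 1 or 2 with antimycin A or without untreated replicate 1 or 3 (adjusted p of up to 0.131). Id2 read 29.9, 56.5 and 64.0 CPM with antimycin A, against 32.9, 28.3 and 26 CPM in untreated cells. Replicate 1 with antimycin A lay within the untreated range, so the groups overlapped, although the fit called the gene (0.76 ± 0.24, adjusted p = 0.0249). That call was lost without replicate 2 or 3 with antimycin A or without untreated replicate 2 or 3 (adjusted p of up to 0.208).

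Il1rl1 read 74.6, 71.8 and 73.2 CPM with antimycin A, against 47.4, 53.1 and 63.8 CPM in untreated cells. The treated libraries lay within 3 CPM of each other and all above the untreated ones, and the log2 fold change of 0.39 ± 0.16 did not pass (73.4 ± 1.48 against 55.9 ± 8.52 CPM, adjusted p = 0.0927). Rora with antimycin A read 104, 97.8 and 109 CPM, all above the untreated libraries (0.32 ± 0.13, adjusted p = 0.0914). DESeq2 called both, with adjusted p = 0.0427 for Il1rl1 and 0.0444 for Rora. Such an arrangement, with all libraries higher, was found in 15.1% of genes tested with antimycin A. Tbx21 read 3.96, 12 and 12.1 CPM with antimycin A, overlapping the untreated cells (-0.83 ± 0.44, adjusted p = 0.215). With piericidin Il1rl1 read 63.2, 56.6 and 50.7 CPM, within the range of the untreated libraries (0.03 ± 0.16, adjusted p = 0.938), and Bcl6 read 10.2, 8.03 and 13.2 CPM, overlapping it (0.71 ± 0.41, adjusted p = 0.275).

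With 3-NPA, edgeR called 0 of 7 genes, and 0 were under an unadjusted p of 0.05 and 0 were called by DESeq2, against 3.23% of genes tested. Rora read 106, 86.8 and 99.8 CPM with 3-NPA (0.22 ± 0.13, adjusted p = 0.419, 95% interval -0.04 to 0.49), and Bcl6 read 8.28, 9.23 and 13.1 CPM (0.66 ± 0.41, adjusted p = 0.442, 95% interval -0.17 to 1.48). Tbx21 read 14.5, 8.5 and 8.71 CPM (-0.68 ± 0.43, adjusted p = 0.452), Id2 read 36.6, 46.5 and 25.8 CPM (0.27 ± 0.25, adjusted p = 0.636) and Il1rl1 read 52.5, 49.1 and 54 CPM (-0.12 ± 0.16, adjusted p = 0.795) with 3-NPA, each overlapping the untreated cells. Gata3 was the steadiest member in culture: it lay between 176 and 222 CPM in all 12 libraries, with log2 fold changes of -0.05 ± 0.10 with piericidin, -0.07 ± 0.10 with 3-NPA and -0.05 ± 0.10 with antimycin A. Ifng was very low in culture, with 0, 1 and 13 counts with piericidin, 24, 7 and 0 with 3-NPA, 4, 7 and 5 with antimycin A and 14, 24 and 6 in untreated cells. It passed the filter and was tested, but not called: -1.56 ± 0.95 with piericidin (adjusted p = 0.306), -0.37 ± 0.87 with 3-NPA (adjusted p = 0.885) and -1.34 ± 0.94 with antimycin A (adjusted p = 0.376). At such counts these values say little. A count of 0 allows up to 1.09 CPM in piericidin replicate 1 and up to 0.871 CPM in 3-NPA replicate 3, from counting error alone (3 counts). Foxp3 itself was higher with piericidin (0.51 ± 0.09, adjusted p = 0.000169) and with antimycin A (0.34 ± 0.09, adjusted p = 0.0093). For Foxp3, antimycin A replicate 1 (549 CPM) lay within the untreated range of 516 to 570 CPM, so those 2 groups overlapped. The summed B and plasma cell markers, at 275 to 294 CPM with piericidin, 320 to 463 CPM with 3-NPA and 351 to 456 CPM with antimycin A against 477 to 547 CPM in untreated cells, moved with the treatments, and their part in the results was not tested.

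The inhibitors were also set against each other, in 3 pairs, at the doses given above, which differ between 3-NPA and the other 2. Of the 7 genes, edgeR called 0 in each pair, against 0.736% of genes tested for antimycin A against piericidin, 3.98% for antimycin A against 3-NPA and 4.29% for piericidin against 3-NPA. At an unadjusted p under 0.05 there were 1, 2 and 2 genes in these pairs, and DESeq2 called 0, 1 and 0. The 1 was Il1rl1, at 73.4 ± 1.48 CPM with antimycin A against 51.5 ± 2.07 CPM with 3-NPA (0.51 ± 0.16, adjusted p = 0.0643, and 0.0164 with DESeq2). Rora differed by -0.21 ± 0.13 between antimycin A and piericidin (adjusted p = 0.608, 95% interval -0.47 to 0.05) and by 0.32 ± 0.13 between piericidin and 3-NPA (adjusted p = 0.173, 95% interval 0.06 to 0.58). Bcl6 differed by 0.54 ± 0.39 between antimycin A and piericidin (adjusted p = 0.697, 95% interval -0.24 to 1.32), and Id2 by -0.07 ± 0.23 (adjusted p = 0.957, 95% interval -0.54 to 0.40).

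The wider programmes around the members were read from lists of genes that do not hold the members. Over all genes tested, 4.78% were called higher and 5.08% lower in RISP_KO, and the counts of the lists stand beside those shares. In RISP_KO, 4 of 15 measured Th1 genes were higher and 3 lower (median log2 fold change -0.04, against 0.00 over all genes tested). Higher were the T-box factor gene Eomes (3.06 ± 0.40, 13.5 ± 4.71 against 1.59 ± 0.940 CPM, adjusted p = 0.00107), both IL-12 receptor genes, Il12rb2 (3.90 ± 0.56, 22.3 ± 13.6 against 1.47 ± 0.975 CPM, adjusted p = 0.00172) and Il12rb1 (0.77 ± 0.13), and Irf1. Eomes is also one of the called CD8 and NK cell markers given above. The chemokine gene Ccl5, Cxcr3 and Il18r1 were lower.

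Of 14 measured genes of the Th2 and IL-33 programme, 3 were higher and 4 lower in RISP_KO (median -0.10). Il4ra, the receptor chain for IL-4, was higher (0.83 ± 0.06, adjusted p = 6.24e-05), as were Ccr8 and Il4. The IL-9 receptor gene Il9r (-2.88 ± 0.32, 3.11 ± 0.981 against 23.0 ± 9.65 CPM, adjusted p = 0.000438) and Pparg, a nuclear receptor of tissue Treg cells (-3.10 ± 0.37, 1.05 ± 0.536 against 9.07 ± 2.45 CPM, adjusted p = 0.000651), were lower, as were Maf and Ccr4. In the Th17 programme 2 of 8 were higher and 1 lower (median -0.01). The chemokine receptor gene Ccr6 fell (-0.72 ± 0.13, adjusted p = 0.00526), and Batf (0.70 ± 0.13, adjusted p = 0.00602) and Irf4 (0.59 ± 0.12, adjusted p = 0.0128), which encode partner factors, rose. In the follicular programme, beside the lower Bcl6, 1 of 13 was higher (Cxcr5) and 4 lower (median -0.12), with the PD-1 gene Pdcd1 at -2.0 ± 0.17 (46.8 ± 11.5 against 187 ± 22.8 CPM, adjusted p = 9.63e-05), Tox at -0.86 ± 0.08 (adjusted p = 0.000236) and Tox2 at -1.90 ± 0.21 (adjusted p = 0.000449), besides Sh2d1a. Among the E and Id proteins 1 of 5 was higher, Id1 (2.18 ± 0.32, adjusted p = 0.00189), and 1 lower, Id3 (-0.83 ± 0.15, adjusted p = 0.0051), beside the level Id2. The marker sums that moved with RISP_KO, given above, stand beside these lists too.

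**Figure D4:**
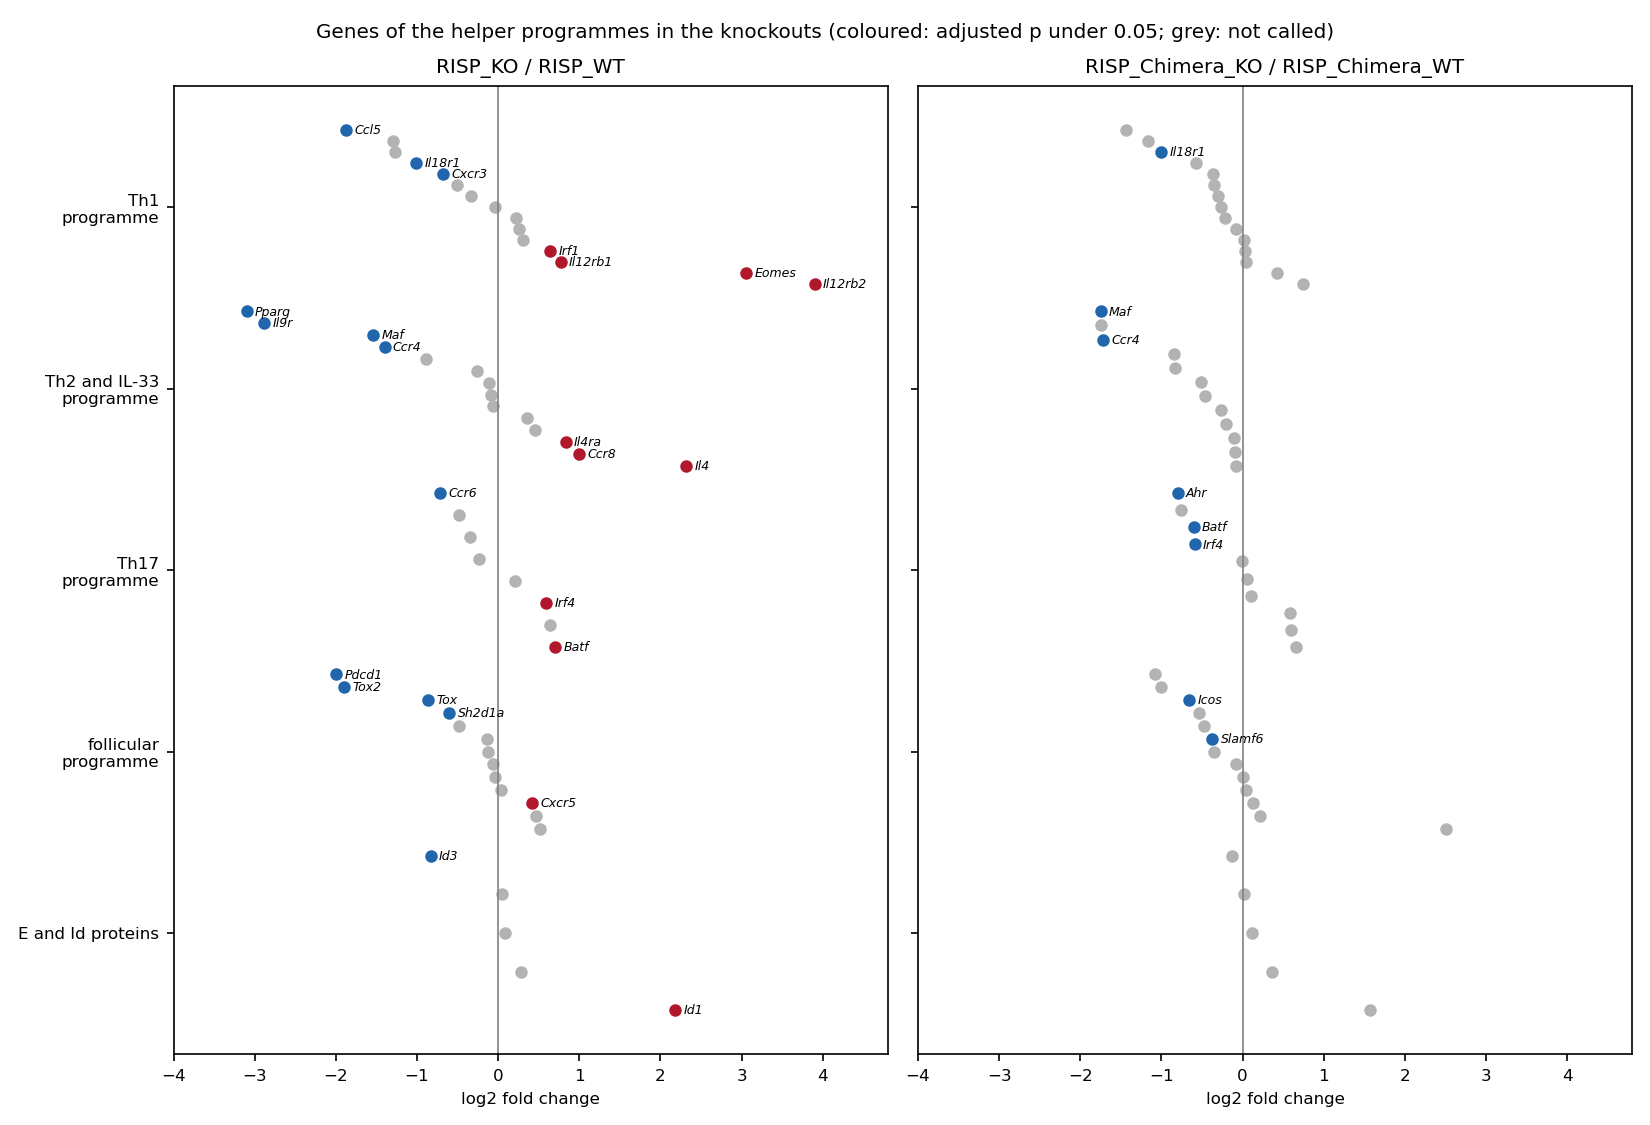
Log2 fold changes (horizontal axis) of the measured genes of 5 lists in RISP_KO against RISP_WT (left) and RISP_Chimera_KO against RISP_Chimera_WT (right); coloured and named points have an adjusted p under 0.05, red higher and blue lower. In RISP_KO the lists hold called genes on both sides of 0, and in RISP_Chimera_KO every called point is on the lower side.

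In chimeras the called genes of these lists were all lower, in a comparison in which 78 of the 102 genes called among all genes tested were lower (0.542%) and 24 higher (0.167%). They were 1 of 15 Th1 genes (median -0.27), 2 of 12 Th2 and IL-33 genes (median -0.48), 3 of 10 Th17 genes (median 0.02) and 2 of 13 follicular genes (median -0.35), against a median of 0.00 over all genes tested. Il18r1, an IL-18 receptor chain, fell by 1.00 ± 0.11 on the log2 scale (adjusted p = 0.00165). Maf, a factor of IL-10 and Th2 cytokine genes, was at 41.8 ± 18.7 against 140 ± 19.4 CPM in RISP_Chimera_WT (-1.75 ± 0.24, adjusted p = 0.00662), and the chemokine receptor gene Ccr4 was also lower (-1.72 ± 0.26, adjusted p = 0.0107). In the Th17 list Ahr (-0.80 ± 0.12, adjusted p = 0.0107), Batf (-0.60 ± 0.10, adjusted p = 0.0206) and Irf4 (-0.59 ± 0.12, adjusted p = 0.0496) were lower. Batf and Irf4 thus had the opposite direction to that in RISP_KO of 3-week-old mice, where both were higher. In the follicular list Icos (-0.66 ± 0.12, adjusted p = 0.0328) and Slamf6 (-0.37 ± 0.07, adjusted p = 0.0432) were lower. Of the 5 E and Id proteins edgeR called 0 (2 at an unadjusted p under 0.05, 0 by DESeq2), with Id1 at 1.57 ± 0.51 (adjusted p = 0.212) and Tcf4 at 0.36 ± 0.16 (adjusted p = 0.347). For the difference of knockout effects, chimeras minus 3-week-old mice, 3.27% of all genes tested were called. There, 0 of 15 Th1 genes were higher and 3 lower, and 1 of 14 Th2 and IL-33 genes was higher and 3 lower. Of 10 Th17 genes 0 were higher and 2 lower, and of 14 follicular genes 2 were higher and 2 lower.

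With piericidin, 13.6% of all genes tested were called (5.62% higher), and the counts of the lists stand beside that share. Of 13 Th1 genes 3 were higher and 2 lower (median 0.10). Ifngr1, a chain of the receptor for interferon-gamma, was higher (0.59 ± 0.09, adjusted p = 2.71e-05), as were Il18rap (1.13 ± 0.29, adjusted p = 0.00675) and Stat4 (0.56 ± 0.15, adjusted p = 0.00736). Of 12 Th2 and IL-33 genes 2 were higher and 1 lower, and they included the partner chain and the adaptor of ST2: Il1rap was higher (1.06 ± 0.28, adjusted p = 0.0079), Maf too (0.35 ± 0.10, adjusted p = 0.017), and Myd88 was lower (-0.61 ± 0.16, adjusted p = 0.00726). In the follicular list 4 of 12 were higher and 1 lower, with Pdcd1 (0.82 ± 0.16, adjusted p = 0.000514) and Cxcr4 (0.75 ± 0.15, adjusted p = 0.000606) higher and Slamf6 (-0.45 ± 0.13, adjusted p = 0.0147) lower. The Th17 list had 1 of 7 higher (Stat3, 0.31 ± 0.08) and 1 lower (Ccr6, -0.78 ± 0.19), and the E and Id proteins had 1 of 5 higher (Tcf12, 0.42 ± 0.12) and 1 lower (Tcf3, -0.50 ± 0.11), beside the higher Id2.

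With antimycin A, 15.0% of all genes tested were called (6.50% higher). In the lists, 3 of 13 Th1 genes were higher and 2 lower, 3 of 12 Th2 and IL-33 genes higher and 1 lower, 0 of 7 Th17 genes higher and 1 lower, 6 of 12 follicular genes higher and 0 lower, and 1 of 5 E and Id proteins higher. The follicular genes were Cxcr4 (1.19 ± 0.15, adjusted p = 2e-07), Pdcd1 (0.86 ± 0.16, adjusted p = 0.000182), Tcf7 (0.43 ± 0.10, adjusted p = 0.00214), Tox, Btla and Icos, beside the higher Bcl6, with a median of 0.31 against 0.02 over all genes tested. Ifngr1 (0.66 ± 0.09, adjusted p = 1.8e-06), Irf1 (-0.62 ± 0.13, adjusted p = 0.000463) and Stat4 (0.65 ± 0.15, adjusted p = 0.00136) had the smallest p of the Th1 list. Myd88 (-0.72 ± 0.16, adjusted p = 0.00133), Maf (0.44 ± 0.10, adjusted p = 0.00195) and Il1rap (1.14 ± 0.28, adjusted p = 0.00339) had those of the Th2 and IL-33 list. With 3-NPA, 3.23% of all genes tested were called. There, 1 of 13 Th1 genes was higher (Stat4, 0.52 ± 0.15) and 1 lower (Irf1, -0.65 ± 0.13), 1 of 12 Th2 and IL-33 genes was lower (Il10, -0.81 ± 0.24), and 2 of 12 follicular genes were higher (Cxcr4, 0.69 ± 0.15, and Tcf7, 0.42 ± 0.10). Of the 7 Th17 genes and the 5 E and Id proteins, edgeR and DESeq2 called 0 with 3-NPA, with 1 in each list at an unadjusted p under 0.05 in edgeR.

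Among 8499 genes, those whose pattern over the 28 libraries was most like that of each member were found by Pearson's r of log2 CPM, centred on the mean of each table. The libraries share their genotype and treatment groups, and the values are a description. Il1rl1 was closest to Maf (r = 0.89) and the chemokine receptor gene Ccr2 (r = 0.84), and within the tables r with Maf was 0.97 in chimeras, 0.78 in 3-week-old mice and 0.65 in vitro. Rora was closest to Ifnar1, an interferon receptor chain, and Sytl2 (both 0.86), with r of 0.94 and 0.95 in 3-week-old mice but 0.37 and 0.12 in chimeras, where Rora did not separate the groups. Bcl6 was closest to Nr3c1, the glucocorticoid receptor gene, and Il1rap (both 0.80), with r of 0.71 and 0.56 in 3-week-old mice, 0.53 and 0.09 in chimeras and 0.84 and 0.91 in vitro. Id2 was closest to Tnfaip3, an inhibitor of NF-κB (0.70), and Cxcr4 (0.69). The neighbours of Ifng were Zfp386 (0.72) and Cd40lg (0.69), those of Gata3 Dmtf1 (0.68) and Dazap2 (0.66), and those of Tbx21 Ola1 (0.64) and Serpina3g (0.63). For the neighbours of Id2, Ifng, Gata3 and Tbx21, r within a single table ran from 0.22 to 0.96.

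**Figure D5:**
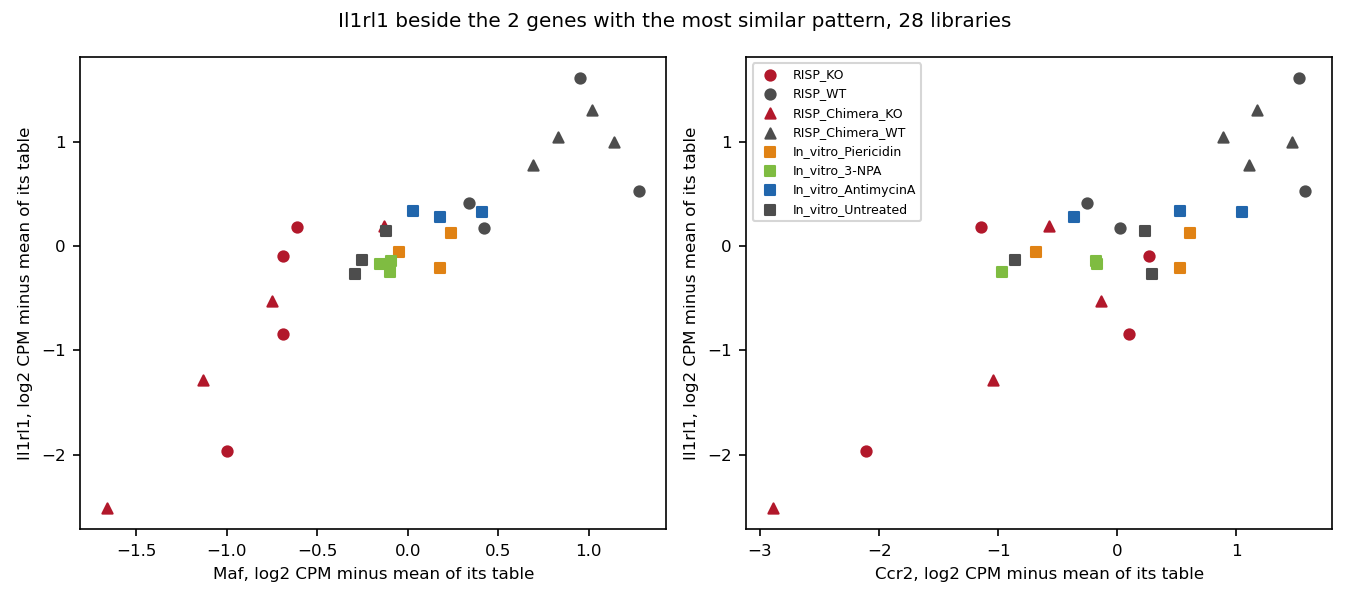
Il1rl1 (vertical axis) against Maf (left) and Ccr2 (right) in the 28 libraries, each as log2 CPM minus the mean of its own table; red marks knockout libraries, dark grey controls, and circles, triangles and squares 3-week-old mice, chimeras and in vitro cells. All 8 knockout libraries lie below 0 for Maf and all 8 of their controls above 0.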

How the data were processed

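RNA was measured in 28 libraries of sorted mouse Treg cells, grouped by the sample labels into 8 groups. The deposited tables hold raw read counts per Ensembl gene, made by the authors from reads that, per the submitters' processing notes, were handled with bcl2fastq, TopHat, HTSeq, edgeR and mm10. Versions and the strand setting are not given in the sources used here. Per the labels' protocols, the 3-week-old knockout and wild-type libraries used a Takara SMART-Seq v4 and Nextera XT kit, and the others an NEBNext Ultra kit after poly(A) selection. A table with 11 columns that carry no sample name of the labels was not used here.

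Here, the CPM of a library divide by its total count, group means ± SD of CPM use TMM-scaled library sizes, and RPKM use the gene length in the tables. No 2 replicates agreed within sampling noise. Each comparison was fitted in R 4.3.3 with edgeR 4.0.16 (filterByExpr with a minimum of 10 counts, TMM factors, glmQLFTest, limma 3.58.1 loaded), adjusted over all genes tested, and called at an adjusted p under 0.05. The knockouts were fitted within their own tables, the inhibitors in 1 fit of 12 libraries, and the difference of knockout effects in 1 fit of 16, for 9 comparisons in all. The SE is the log2 fold change without prior count divided by the square root of F, and printed fold changes use a prior count of 0.125. Intervals are 95% intervals, and floors of 3 counts cover counting error only. The scripts were tested on simulated counts.

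Genes named beside the members are Uqcrfs1, Foxp3, up to 3 called genes with the smallest p per list and comparison (or, with none called, the 2 with the smallest p) and the 2 most similar genes per member among those with a mean of at least 5 CPM in each table. Called genes beyond these were named after their values were seen. The members and lists were chosen with earlier results of these data known. Some genes of the Th1 and Th17 lists are not reported here and are not counted in them. Promoter windows come from RefSeq (GRCm38.p6), where all 7 members matched, with 9 windows and 5 motifs searched. Alternatives were DESeq2 1.42.0, RLE factors, fits without a filter or with one at 1 CPM, fits of only the groups compared, a replicate block, and leaving out each library, and, added after seeing the data, leaving out 2 chimera libraries together.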

Additional observations from a re-analysis of the deposited data

Results flagged for a closer look

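Il1rl1 in replicate 1 of RISP_WT read 110 CPM, and the gap to the next library of that group took a share of 0.857 of the group's range, above Dixon's 95% critical value for 4 libraries. It was the only such library among 28 sets of 4 (7 genes in 4 groups), and chance marks about 1 in 20 sets. Maf (0.95) and Ccr2 (1.53, log2 CPM minus the mean of the table) were also above their means there, as in most RISP_WT libraries. Without this library the log2 fold change of Il1rl1 was -0.85 in place of -1.27, and neither passed the threshold.

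The knockout's effect on Rora differed between chimeras and 3-week-old mice by 1.30 on the log2 scale (adjusted p = 0.00474 in edgeR), as described above. Age, library kit and setting differ together and cannot be told apart, and the loss of Uqcrfs1 differed too, as given above.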

How the results depend on the processing

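The calls of Rora in RISP_KO, with piericidin and for the difference of knockout effects kept their direction and stayed past the threshold under every alternative run (13, 12 and 21 of them). Of 730 member values under an alternative, 651 kept direction and side of the threshold, 25 lost a call, 23 gained one and 31 changed sign. The number of members called was less stable, and the cause was not tested except that a left-out library leaves fewer samples. In RISP_KO against RISP_WT it was 3, but 1 (Rora) with the replicate block, where Bcl6 (adjusted p = 0.0721) and Ifng (0.0844) were not called, and 1 to 3 with 1 library left out (1 without RISP_KO replicate 4 or RISP_WT replicate 1, 3 or 4). In the chimeras it was 0, but 1 with DESeq2, with no filter and with the replicate block, 0 to 1 with 1 library left out (1 without RISP_Chimera_KO replicate 2) and 2 without RISP_Chimera_KO replicates 2 and 4 together, the highest of their group for the genes then called. With antimycin A it was 2, but 4 with DESeq2 and 0 to 1 with 1 library left out (0 without its replicate 2 or untreated replicate 3). With piericidin it was 2, but 3 with DESeq2, no filter, only the groups compared or the replicate block, and 1 to 3 with 1 library left out, where Tbx21 was the added call in each case of 3. For antimycin A against 3-NPA it was 0, but 1 with DESeq2, and for the difference of knockout effects 1, but 2 with DESeq2, RLE factors, no filter or a filter of 1 CPM, and 1 to 2 with 1 library left out.

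The values that changed sign, none of them called in the reported fit, were the following. Id2 in RISP_KO was -0.00 with no filter, -0.09 with the replicate block and -0.32 to 0.16 with 1 library left out, and the Ifng difference of knockout effects was -0.10 without RISP_Chimera_KO replicates 2 and 4. With 1 library left out, Id2 ran from -0.57 to 0.05 in the chimeras, -0.58 to 0.15 for the difference of effects and -0.29 to 0.18 for antimycin A against piericidin, and Rora in the chimeras from -0.24 to 0.02. Gata3 ran from -0.12 to 0.03 with piericidin, -0.14 to 0.01 with 3-NPA and -0.12 to 0.04 with antimycin A, Il1rl1 from -0.07 to 0.15 with piericidin and -0.20 to 0.01 with 3-NPA, Ifng with 3-NPA from -1.89 to 0.25, and Bcl6 for piericidin against 3-NPA from -0.15 to 0.27. Deviations from group means correlated at -0.04 to 0.03 (3-week-old mice), -0.10 to 0.13 (chimeras) and 0.00 to 0.09 (in vitro) between same-numbered libraries of different groups. Between other-numbered libraries the correlations were -0.10 to 0.07, -0.12 to 0.17 and -0.08 to 0.03. In vitro the same-numbered pairs thus ranged higher, but all values were small, and a shared effect of replicate number there was not tested. The reported fits did not take the numbers as pairs, and the replicate block was run as an alternative. Counts of all genes called moved by over 1.5 times with DESeq2: 2148 against 1364 in RISP_KO, 436 against 102 in the chimeras, 672 against 377 with 3-NPA, 203 against 86 for antimycin A against piericidin, 788 against 465 for antimycin A against 3-NPA, 820 against 502 for piericidin against 3-NPA and 908 against 509 for the difference of effects. With the replicate block RISP_KO had 895. The chimeras had 208 with no filter and 247 without RISP_Chimera_KO replicates 2 and 4, and the difference of effects had 319 without those 2 libraries. Depth limits Ifng in vitro, where libraries held 0 to 24 counts of it. With 1 library left out the counts of all genes fell to as few as 130 with 3-NPA (without its replicate 3), 33 in the chimeras (without RISP_Chimera_WT replicate 2) and 787 in RISP_KO (without RISP_WT replicate 1), and rose to as many as 177 in the chimeras (without RISP_Chimera_KO replicate 2).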
